A study of Mus musculus with 24 samples.

Results

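The distal end of the maxilla was compared with its proximal end in Alk5 mutant mouse embryos at embryonic day 14.5. The comparison used 6 of the 24 arrays of the study, 3 from distal and 3 from proximal mutant maxilla, chosen by their labels and not by any measured value. The mutants came from Wnt1cre;Alk5fl/+ mice mated with Alk5fl/fl mice on a C57B6 background and were told from their littermates by cleft palate and calvarial defects. Each maxilla had been cut into its ends, and the labels call both compartments bone. The same ends of the maxilla of control littermates and of the mutant mandible, 3 arrays per end, served for comparison. The genotype of the controls is given as control and no further, and the labels do not say whether an array held 1 embryo or several. The p-values therefore measure the spread between arrays. Unless stated otherwise it was taken from all 24 arrays, which also include the control mandible.

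Alk5, also named Tgfbr1, is the type I receptor of TGF-beta ligands. It pairs with Tgfbr2 and phosphorylates Smad2 and Smad3. Wnt1-Cre recombines floxed alleles in the neural crest, which gives rise to bone, cartilage and connective tissue of the face, whereas the epithelium, the skeletal muscle fibres, the endothelium and the macrophages of the jaw have other origins. The maxillary process forms the upper jaw and the palatal shelves, with its distal part towards the snout and its proximal part towards the jaw joint.

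Signals are on a log2 scale, so a difference of 1 is a 2-fold change. Of 18193 genes measured, 13942 were tested, namely those above the 40th percentile of all probe sets in 3 or more of the 24 arrays. This filter level was 6.33 to 6.37 in the mutant maxilla. Differences are distal minus proximal, with the standard error (SE) of the fit, and a gene was called at an adjusted p under 0.05. Arrays of the same number at the 2 ends deviated together from their group means (correlation over genes 0.60, 0.69 and 0.74 for numbers 1, 2 and 3, against -0.64 to 0.29 for unlike numbers), so the numbers were treated as pairs in a second, paired fit with the replicate number as a block. "Without pairing" and "with pairing" refer to these fits.

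Both arrays of replicate 3 stood apart. Their mean correlation with the other arrays of their own group was 0.987 at the distal and 0.985 at the proximal end, against 0.988 and 0.990 with the mutant mandible of the same end. Hand2, a transcription factor of the mandible, reached 7.16 distally and 6.90 proximally on the arrays of replicate 3, against 5.48 to 6.22 on the other 4 and 10.7 to 13.1 in the mutant mandible. Control maxilla spanned 5.11 to 7.38 for this gene. Pax6 of the eye and nasal placodes (7.44 and 7.20, against 8.80 to 9.19) and the neuronal tubulin gene Tubb3 (8.82 and 9.27, against 10.7 to 11.2) were low on them. Y-linked Eif2s3y was at 9.24 to 9.72 in replicates 1 and 3 and at 3.84 and 4.02 in replicate 2, at both ends. Xist, the RNA of the inactive X chromosome, was at 11.15 to 12.79 in replicates 1 and 3 and at 13.37 and 13.39 in replicate 2, so both kinds of transcript were high on the arrays of replicates 1 and 3. Counts are therefore given with and without replicate 3.

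Without pairing, 173 genes (1.24% of those tested) were called, 113 higher (0.811%) and 60 lower (0.430%) in the distal end. With pairing, 865 genes (6.20%) were called, 399 higher (2.86%) and 466 lower (3.34%), and they included all 173. Without replicate 3 the counts were 63 (0.452%) without pairing, with 34 higher (0.244%) and 29 lower (0.208%), and 286 (2.05%) with pairing, with 125 higher (0.897%) and 161 lower (1.15%). Without replicate 2 they were 5 and 350, and without replicate 1 they were 70 and 551. Leaving out 1 array gave 105, 57 and 176 genes without distal array 1, 2 or 3, and 104, 78 and 94 without proximal array 1, 2 or 3, all without pairing. These fits take the spread from all 24 arrays. With only the 6 mutant maxilla arrays in the fit, 1 gene, Hrnr, was called without pairing and 570 with pairing, so each call without pairing below, apart from that of Hrnr, rests on the spread of the other groups too. The median difference over all genes was -0.00, and the 3 distal and 3 proximal arrays did not overlap for 2061 genes (14.8%). These shares of all genes, 1.24% without and 6.20% with pairing for calls, are the background for every list count below.

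The targeted gene itself did not separate the ends of the mutant maxilla. Tgfbr1 read 12.57, 12.46 and 12.20 in distal mutant maxilla, against 12.52, 12.51 and 12.29 in proximal mutant maxilla. The difference was -0.03 ± 0.09 (adjusted p = 0.977), and only 1 of its 3 probe sets had that sign. In the control maxilla Tgfbr1 was lower distally (-0.30 ± 0.09, adjusted p = 0.0314). The mutant minus control difference of 0.28 ± 0.13 was called with pairing only (adjusted p = 0.452 without and 0.0296 with pairing). Where the probe sets lie relative to the floxed sequence is not known here, so these values do not check the deletion.

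**Figure D1:**
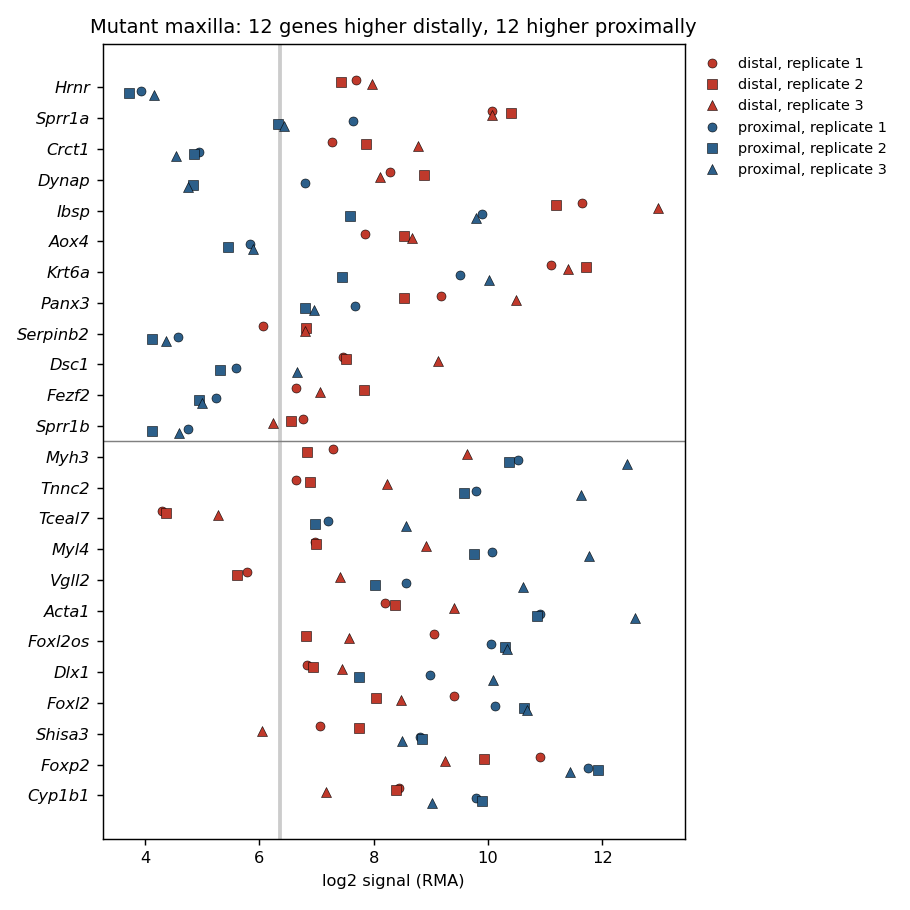
Log2 signal of the 12 genes with the largest positive and the 12 with the largest negative end difference among called genes, on the 6 mutant maxilla arrays; red marks are distal arrays, blue marks proximal arrays, marker shape is the replicate number, and the grey band is the filter level of 6.33 to 6.37. No distal and proximal marks of a gene overlap, because the rule for choosing these genes required it, and 8 of the 12 upper genes have proximal means below the band.

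Genes of the outer, cornifying layers of stratified epithelium were higher in the distal end, 7 of 24 without pairing and 14 of 24 with pairing. These counts include members, such as Sprr1b, that entered the test only through distal maxilla. Sprr1a, a small proline-rich protein of the cornified envelope, read 10.08, 10.39 and 10.08 in distal arrays, against 7.64, 6.32 and 6.43 in proximal arrays. All 3 distal arrays were far above the proximal ones, a difference of 3.39 ± 0.45 (10.5-fold, adjusted p = 0.00120). Krt6a, a keratin of oral and stressed epithelium, read 11.10, 11.72 and 11.40 distally, against 9.51, 7.44 and 10.02 proximally, a difference of 2.42 ± 0.51 (5.34-fold, adjusted p = 0.0216). Lor, which encodes loricrin of the cornified envelope, read 9.23, 10.11 and 9.18 distally, against 7.68, 7.55 and 7.54 proximally, a difference of 1.91 ± 0.35 (3.77-fold, adjusted p = 0.00881). Fewer cells of a type and less RNA per cell cannot be told apart in such tissue samples.

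The other epithelial genes with the largest distal excess had proximal means below the filter level, so their log2 differences are lower limits. Single proximal arrays lay above it for Dynap (6.80 on array 1) and Dsc1 (6.66 on array 3). These genes entered the test through the arrays where they were high. For Hrnr, Crct1, Sprr1b, Serpinb2 and Aox4 only distal maxilla, of mutants and controls, had a group mean above the filter level. Adjusted p-values and kept calls of those genes therefore describe the arrays and are no independent support. Hrnr, hornerin of the epidermal cornified layer, read 7.69, 7.43 and 7.97 distally, against 3.93, 3.72 and 4.16 proximally, a difference of 3.76 ± 0.55 (adjusted p = 0.00287). Crct1, of the epidermal differentiation complex (3.19 ± 0.51), the desmosomal cadherin Dsc1 (2.18 ± 0.45), Sprr1b (2.03 ± 0.43), the serine protease inhibitor Serpinb2 (2.21 ± 0.25), the aldehyde oxidase Aox4 (2.63 ± 0.33) and Dynap (2.96 ± 0.46) were called too, with adjusted p between 0.000352 and 0.0216. Hrnr, Sprr1a, Crct1, Dynap, Aox4 and Serpinb2 kept their calls whichever of the 6 arrays was left out. With only these 6 arrays in the fit, Hrnr kept its call without pairing (adjusted p = 0.00714) and the other five did not (0.107 to 0.171), while with pairing all were called (up to 0.0463). The call of Krt6a ended without distal array 2 or proximal array 2 (adjusted p up to 0.101) and that of Lor without distal array 2 (0.0608). Dsc1 lost its call without distal array 3, proximal array 1 or proximal array 2 (up to 0.0867), and Sprr1b without distal arrays 1 or 2 or proximal arrays 2 or 3 (up to 0.0878).

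Promoters of Sprr1a and Lor are shown because these genes lead the cornified group and share a motif. They are the 250 bases before the start of each gene on the minus strand of GRCm38.p6 (RefSeq), at chr3:92485882-92486131 for Sprr1a and chr3:92083143-92083392 for Lor, with matches to TGANTCA, the recognition sequence of AP-1 dimers, in capitals.
Sprr1a: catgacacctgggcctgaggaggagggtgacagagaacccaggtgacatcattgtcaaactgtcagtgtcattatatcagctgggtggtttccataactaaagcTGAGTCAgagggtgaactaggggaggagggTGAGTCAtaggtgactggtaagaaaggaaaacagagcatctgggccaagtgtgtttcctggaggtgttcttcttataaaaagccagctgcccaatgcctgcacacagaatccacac
Lor: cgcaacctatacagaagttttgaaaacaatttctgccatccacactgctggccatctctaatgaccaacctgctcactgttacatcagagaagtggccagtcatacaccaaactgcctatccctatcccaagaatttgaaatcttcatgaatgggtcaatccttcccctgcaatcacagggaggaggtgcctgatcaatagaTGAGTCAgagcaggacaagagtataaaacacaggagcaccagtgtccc
TGANTCA was searched on both strands, and being a palindrome it has the same matches on each. Sprr1a had 2 matches and Lor 1, and both promoters also held TATAAA. Of 18 tested cornified genes with a promoter in the table, 5 (27.8%) held TGANTCA, against 6.75% of all 32851 promoters. The first share counts a gene if any of its promoters matched, the second counts promoters (of 27025 genes), so the 2 are unlike measures. These matches describe letters and not bound sites.

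Of the 24 tested genes of skin and cornified epithelium, 7 were higher distally and 0 lower without pairing, and 14 were higher and 0 lower with pairing. Without replicate 3 the counts were 4 higher without pairing and 9 with pairing. The median difference of the list was 0.89, beside -0.00 for all genes, and 23 of 24 differences were positive. Members that entered the test only through distal maxilla, such as Sprr1b, are in these values. The counts and the median therefore describe these arrays and are no independent support. In summed linear signal the list ranged from 19974 to 41947 in distal arrays and from 8809.6 to 21317 in proximal arrays, so the ranges overlapped slightly.

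Krt1 and Them5 were called with pairing only. Krt1, the keratin of suprabasal epidermis, read 11.26, 11.04 and 12.63 distally, against 10.59, 9.95 and 11.68 proximally. The groups overlapped because both arrays of replicate 3 were high, while each pair had the distal array above its proximal partner, and the difference of 0.90 ± 0.41 had an adjusted p of 0.392 without and 0.00336 with pairing. Them5, an acyl-CoA thioesterase, read 8.39, 8.51 and 9.90 distally, against 6.99, 6.01 and 8.94 proximally, a difference of 1.62 ± 0.54 (adjusted p = 0.178 without and 0.00407 with pairing). Both kept the paired call whichever pair was left out (adjusted p up to 0.0340).

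A list of basal genes, which also holds genes of epithelium in general such as Cdh1 and Epcam, had calls with pairing only. None of the 22 tested was called without pairing (adjusted limma test, with 1612 genes of the whole comparison at an unadjusted p under 0.05). With pairing 10 were higher and 0 lower. The basal keratin Krt15 was not among them (0.11 ± 0.38, adjusted p = 0.979 without and 0.896 with pairing). Esrp1, a splicing regulator of epithelial cells, read 10.74, 10.95 and 10.79 distally, against 10.16, 10.34 and 10.12 proximally (0.62 ± 0.17, adjusted p = 0.0768 without and 0.0123 with pairing). Grhl2, a transcription factor of epithelial junction genes (0.58 ± 0.20), and Esrp2 (0.53 ± 0.20) passed with pairing as well. Without replicate 3, 0 of the 22 were called in either fit, and the calls of Esrp1, Grhl2 and Esrp2 also ended without replicate 1 or 2 (adjusted p up to 0.221). Of 10 tested genes of oral mucosa, 1 was higher without and 3 with pairing, Krt6a and the epithelial factor Klf5 (0.60 ± 0.21) among those called with pairing. Klf5 did not pass without any 1 pair (up to 0.170).

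**Figure D2:**
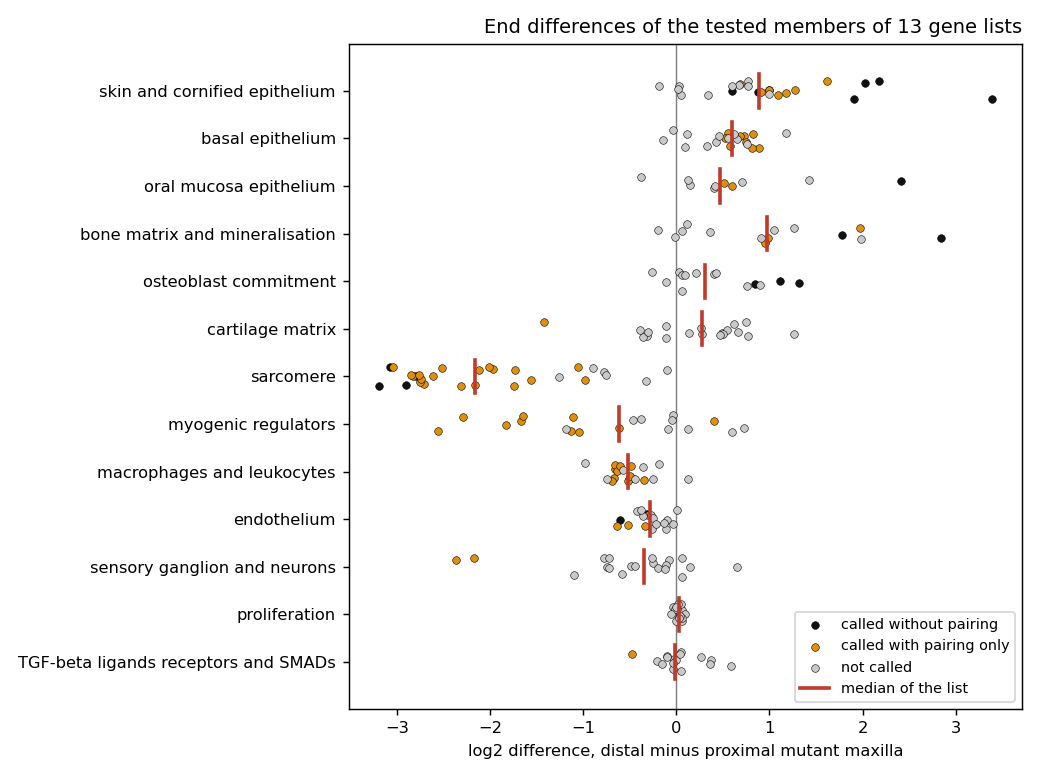
Log2 difference, distal minus proximal mutant maxilla, of the tested members of 13 gene lists; each point is a gene, black where called without pairing, orange where called with pairing only and grey where not called, and the red bar is the list's median. Cornified epithelium (median 0.89) and bone matrix (0.97) lie to the right of 0, sarcomere genes (-2.16) lie entirely to the left, and proliferation genes (0.03) sit at 0.

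Some genes of bone and its matrix were higher in the distal end. Ibsp, bone sialoprotein of mineralising matrix, read 11.64, 11.20 and 12.98 in distal arrays, against 9.90, 7.59 and 9.80 in proximal arrays, a difference of 2.85 ± 0.65 (7.19-fold, adjusted p = 0.0355). Panx3, a channel protein of osteoblasts and hypertrophic chondrocytes, read 9.19, 8.53 and 10.49 distally, against 7.67, 6.79 and 6.95 proximally (2.26 ± 0.42, 4.80-fold, adjusted p = 0.0102). Omd, osteomodulin, read 8.56, 7.92 and 9.61 distally, against 7.17, 6.32 and 7.25 proximally (1.78 ± 0.41, adjusted p = 0.0369). For all 3 genes the lowest distal array lay above the highest proximal array. Panx3 lost its call without proximal array 2 (0.0535), Ibsp without any distal array or proximal array 2 (up to 0.140), and Omd without any array except distal array 2 (up to 0.139), whereas all 3 kept the paired call without any 1 pair (adjusted p up to 0.0365).

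Of 14 tested bone matrix genes, 2 were higher and 0 lower without pairing and 5 higher and 0 lower with pairing. Without replicate 3 the counts were 0 and 2. The additional paired calls included Ifitm5, an osteoblast membrane protein (9.15, 9.0 and 10.97 distally, against 7.89, 7.04 and 8.29 proximally, 1.97 ± 0.54, adjusted p = 0.0870 without and 0.00819 with pairing), and Alpl, alkaline phosphatase (0.98 ± 0.31, 0.141 and 0.0475). Ifitm5 did not pass with pairing without replicate 2 or 3, and Alpl without any pair (adjusted p up to 0.423). The median of the list was 0.97, and 0.60 without replicate 3. Its summed signal ran from 36644 to 61973 distally and from 37446 to 44149 proximally, which overlapped.

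Upstream of matrix, 3 of 14 osteoblast commitment genes were higher and 0 lower in both fits. Msx2, a homeobox gene of calvarial and jaw osteoprogenitors and a BMP target, read 9.68, 10.19 and 10.02 distally, against 9.08, 8.66 and 8.18 proximally (1.32 ± 0.23, 2.50-fold, adjusted p = 0.00673). Dlx3 (1.12 ± 0.22, adjusted p = 0.0142) and Dlx5 (0.85 ± 0.17, adjusted p = 0.0191), homeobox genes of the jaw mesenchyme and osteoblasts, were called as well. Msx2 kept its call without any 1 array, Dlx3 lost it without distal array 3 or proximal array 2 (up to 0.0648), and Dlx5 without distal array 2 or proximal arrays 1 or 2 (up to 0.0947), and with pairing without replicate 1 or 2 (up to 0.116). Trps1, a GATA-type repressor of cartilage and bone maturation, was higher (1.04 ± 0.23, adjusted p = 0.0253, up to 0.0853 without any 1 distal array), and so was Car2, carbonic anhydrase 2 of osteoclasts and other cells (0.99 ± 0.18, adjusted p = 0.0102, up to 0.0726 without distal or proximal array 2). Among 19 cartilage matrix genes, 0 were called without pairing, and only C1qtnf3 passed with pairing, lower distally (-1.42 ± 0.47, adjusted p = 0.0361). Its distal signals (5.49, 5.75 and 6.04) lay below the filter level, so the log2 size is a lower limit. That call ended when any pair was left out (up to 0.161).

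Genes of skeletal muscle fibres were lower in the distal end, 4 of 29 without pairing and 23 of 29 with pairing. Myh3, the embryonic myosin heavy chain, read 7.29, 6.84 and 9.64 in distal arrays, against 10.53, 10.38 and 12.43 in proximal arrays, a difference of -3.19 ± 0.78 (9.12-fold lower, adjusted p = 0.0494). Acta1, skeletal actin, read 8.19, 8.37 and 9.40 distally, against 10.90, 10.87 and 12.58 proximally (-2.80 ± 0.65, 6.95-fold lower, adjusted p = 0.0398). Both replicate 3 arrays were the highest of their end, and no distal array reached a proximal one. The calcium sensor Tnnc2 (-3.08 ± 0.75) and the myosin light chain Myl4 (-2.90 ± 0.67) behaved likewise, with adjusted p of 0.0478 and 0.0369. These 4 calls ended without any 1 array other than distal array 3 (adjusted p up to 0.236). With pairing all 4 passed, and Myh3 alone lost the paired call, without replicate 2 (0.0547).

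Acta1 and Actc1, the cardiac actin that embryonic skeletal muscle also makes, are shown with their promoters because actin promoters carry a named motif, the CArG box bound by serum response factor. The sequences are the 250 bases before the start on the minus strand of GRCm38.p6 (RefSeq), at chr8:123894776-123895025 for Acta1 and chr2:114052876-114053125 for Actc1, with the CArG box in capitals.
Acta1: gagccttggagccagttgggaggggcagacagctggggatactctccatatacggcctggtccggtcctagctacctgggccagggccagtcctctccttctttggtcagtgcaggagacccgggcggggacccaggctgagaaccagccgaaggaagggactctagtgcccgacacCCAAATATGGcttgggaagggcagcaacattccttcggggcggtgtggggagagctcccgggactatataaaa
Actc1: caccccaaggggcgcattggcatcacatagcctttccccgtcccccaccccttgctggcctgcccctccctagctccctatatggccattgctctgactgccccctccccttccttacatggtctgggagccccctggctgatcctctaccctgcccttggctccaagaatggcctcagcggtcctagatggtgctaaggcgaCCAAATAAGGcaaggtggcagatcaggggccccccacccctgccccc
Each promoter had 1 match, searched on both strands. A CArG box was found in 3 of 26 sarcomere genes with a promoter in the table (11.5%), against 1.47% of all promoters. CAGCTG, an E-box core that myogenic factors can bind, was found in 12 of 26 (46.2%), against 13%. Here too the list counts genes with any matching promoter and the whole table counts promoters. Actc1, chosen for its promoter after its values were seen, read 9.52, 8.93 and 12.01 distally, against 12.50, 12.24 and 13.95 proximally (-2.75 ± 0.71, adjusted p = 0.0644 without and 0.00585 with pairing, and 0.0542 with pairing without replicate 2). A match is a description of the letters, and a promoter without one says nothing about the factor.

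All 29 tested sarcomere genes had negative differences, from -3.19 to -0.10, with a median of -2.16. Without pairing 4 were lower and 0 higher, with pairing 23 were lower and 0 higher, and for 24 the 2 ends did not overlap (14.8% of all genes). Without replicate 3 the counts were 1 and 10. The summed signal of the list was 5708 to 14942 in distal arrays and 21105 to 74693 in proximal arrays, and these ranges did not overlap. Vgll2, a cofactor of TEAD factors in skeletal muscle, was lower distally (5.78, 5.61 and 7.40, against 8.56, 8.03 and 10.62 proximally, -2.81 ± 0.56, adjusted p = 0.0152), as was Tceal7 (-2.93 ± 0.66, adjusted p = 0.0309), with distal signals below the filter level except on array 3 for Vgll2, so that the log2 sizes are lower limits. Vgll2 lost its call without distal arrays 1 or 2 or proximal array 3 (up to 0.0905), and Tceal7 without any array except distal array 3 (up to 0.141).

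Regulators of myogenesis were called with pairing only. Of 19 tested, 0 were called without pairing, and with pairing 9 were lower and 1 higher distally. Myog, the transcription factor of myoblast fusion and differentiation, read 7.86, 7.16 and 9.61 distally, against 10.22, 9.90 and 12.19 proximally (-2.56 ± 0.70, adjusted p = 0.0840 without and 0.00420 with pairing). Megf10, a receptor of satellite cells and myoblasts, had -1.13 ± 0.28 (0.0510 and 0.00244), and the branchiomeric muscle factor Msc had -1.65 ± 0.49 (0.122 and 0.00973). Myog and Megf10 kept the paired call without any 1 pair, and Msc lost it without replicate 1 or 2 (up to 0.0672). Without replicate 3, 5 regulators were lower with pairing.

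**Figure D3:**
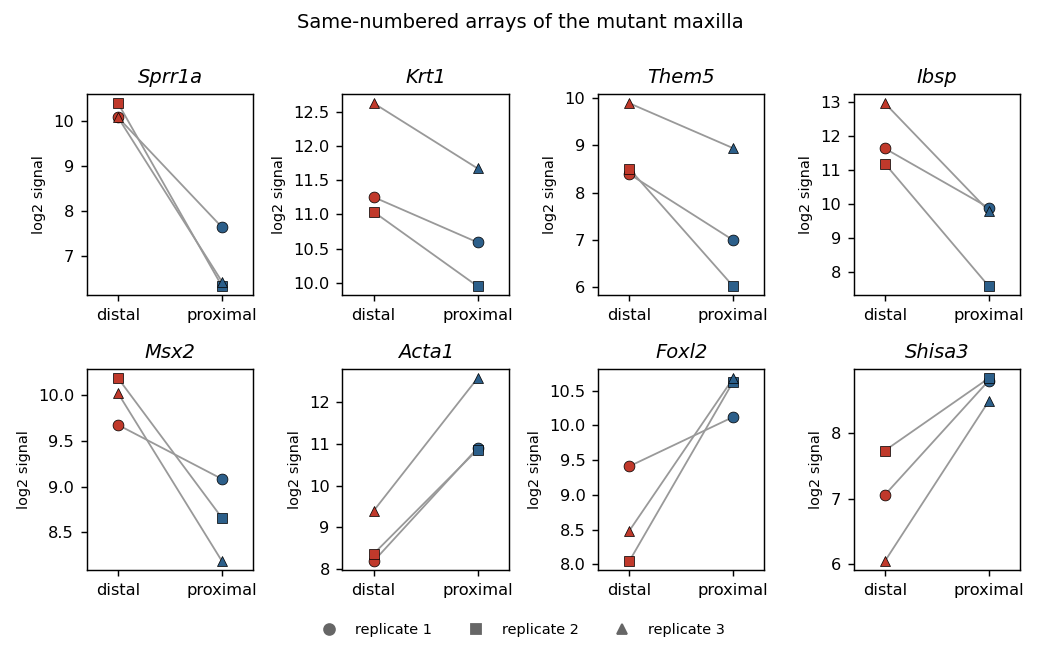
Log2 signal of 8 genes on the 6 mutant maxilla arrays, with lines joining distal (left) and proximal (right) arrays of the same number and marker shape giving that number. Every line falls for Sprr1a, Krt1, Them5, Ibsp and Msx2 and climbs for Acta1, Foxl2 and Shisa3, and for Krt1 and Them5 the arrays of replicate 3 lie above the others at both ends.

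Several patterning factors, a minority of those tested, were lower in the distal end. Foxl2, a forkhead factor of periocular and jaw mesenchyme, read 9.41, 8.04 and 8.48 in distal arrays, against 10.12, 10.63 and 10.68 in proximal arrays (-1.83 ± 0.30, 3.56-fold lower, adjusted p = 0.00445). Foxl2os, transcribed beside it from the opposite strand, was lower too (-2.41 ± 0.42, adjusted p = 0.00621). The 2 ends of both genes did not overlap, and both calls held without any 1 array (adjusted p up to 0.0423). Foxp2, a forkhead factor of brain and craniofacial mesenchyme, read 10.90, 9.93 and 9.26 distally, against 11.75, 11.93 and 11.44 proximally (-1.68 ± 0.34, 3.19-fold lower, adjusted p = 0.0171), and lost its call without distal arrays 2 or 3 or proximal arrays 1 or 2 (up to 0.0756).

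Shisa3, an inhibitor of Wnt and FGF receptor maturation, read 7.06, 7.74 and 6.04 distally, against 8.81, 8.84 and 8.49 proximally. All distal arrays lay below all proximal ones (-1.77 ± 0.42, 3.41-fold lower, adjusted p = 0.0436). The call ended without any array except distal array 2 (up to 0.141), and the paired call ended without replicate 3 (0.0518). Cyp1b1, a cytochrome P450 that oxidises retinoids and steroids, was lower distally (8.44, 8.40 and 7.16, against 9.79, 9.90 and 9.02 proximally, -1.57 ± 0.29, adjusted p = 0.0102), and missed the threshold only without proximal array 2 (0.0593).

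Of 22 tested proximal first arch factors, 2 were lower and 0 higher without pairing, and 5 were lower and 0 higher with pairing (0 and 3 without replicate 3). Dlx1, a homeobox gene of the proximal arch and palate, read 6.83, 6.94 and 7.45 distally, against 8.98, 7.75 and 10.09 proximally (-1.87 ± 0.40, 3.65-fold lower, adjusted p = 0.0216). Barx1, a homeobox gene of molar mesenchyme and posterior palate, read 9.21, 9.08 and 8.46 distally, against 9.72, 10.06 and 11.56 proximally (-1.53 ± 0.36, 2.89-fold lower, adjusted p = 0.0431). The proximal array of replicate 3 stood highest for both genes. Without it the call of Barx1 ended, as it did without every other array but proximal array 1 (adjusted p up to 0.172), and the paired adjusted p was 0.0497, with 0.442 without replicate 3. Its paired call also ended without replicate 2. Dlx1 lost its call without distal arrays 1 or 2 or proximal arrays 1 or 3 (up to 0.0947). Nr2f2, an orphan nuclear receptor (-0.70 ± 0.20), and Lhx6, a LIM homeobox gene of oral and molar mesenchyme (-1.39 ± 0.52), passed with pairing only (adjusted p = 0.00407 and 0.0141), and Lhx6 did not pass without replicate 3 (0.153).

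Members of the Dlx family ran in both directions, with Dlx3 and Dlx5 higher and Dlx1 lower distally. Among 12 tested Dlx, Hand and endothelin genes, 2 were higher and 3 lower in both fits. Ednrb, an endothelin receptor of neural crest and melanoblasts, was 1 of those lower (-0.66 ± 0.13, adjusted p = 0.0181, up to 0.0720 without distal arrays 1 or 3 or proximal arrays 1 or 2). Among 10 posterior palate factors 2 were higher and 2 lower. Mn1, a transcriptional coregulator needed for the palate, was lower (-0.61 ± 0.13, adjusted p = 0.0234, up to 0.131 without distal array 2 or proximal array 3), and the FGF receptor gene Fgfr2 was higher (0.43 ± 0.09, adjusted p = 0.0216, up to 0.0751 without distal arrays 2 or 3 or proximal arrays 1 or 3). Of 16 frontonasal factors, 1 was higher without and 4 with pairing, among them Tfap2a, an AP-2 factor of neural crest and ectoderm (0.81 ± 0.20, adjusted p = 0.0577 and 0.00350).

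In the BMP and Wnt response lists, which do not hold Shisa3, the genes called without pairing were higher distally. Bambi, a BMP and TGF-beta pseudoreceptor, read 10.58, 10.75 and 10.76 in distal arrays, against 10.05, 9.82 and 9.44 in proximal arrays (0.93 ± 0.16, 1.90-fold, adjusted p = 0.00560). Wif1, a secreted Wnt inhibitor, read 10.83, 10.51 and 11.27 distally, against 10.07, 9.23 and 9.05 proximally (1.43 ± 0.24, 2.69-fold, adjusted p = 0.00593). Both held without any 1 array. Nkd2, a cytoplasmic Wnt antagonist (0.59 ± 0.11, adjusted p = 0.00830), lost its call without distal or proximal array 2 (up to 0.0565), and Dkk1, a secreted Wnt antagonist (0.91 ± 0.22, adjusted p = 0.0448), without any 1 array (up to 0.141).

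Of 14 tested BMP response genes 2 were higher and 0 lower without pairing and 5 higher and 0 lower with pairing. The ligand Bmp4 (0.58 ± 0.16, adjusted p = 0.0800 and 0.0137) and the homeobox gene Msx1 (1.06 ± 0.36, 0.180 and 0.0435) were among the paired calls. Bmp4 did not pass without replicate 2 or 3 (up to 0.147), and Msx1 did not without any 1 pair (up to 0.339). Of 20 Wnt response genes, 3 were higher and 0 lower without pairing, and 5 were higher and 2 lower with pairing. Dkk2 was lower in the distal end with pairing (-0.51 ± 0.13, adjusted p = 0.0264), opposite to Dkk1, and missed the threshold without any 1 pair (up to 0.202).

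Retinoic acid and axon guidance genes each had members that held through every array left out. Aldh1a2, the enzyme that makes retinoic acid in the early embryo, read 10.07, 10.14 and 9.69 distally, against 10.85, 11.04 and 11.34 proximally (-1.10 ± 0.16, 2.15-fold lower, adjusted p = 0.00285). Of 14 retinoic acid pathway genes, it was the only one called without pairing. With pairing 3 were lower and 0 higher, the receptor gene Rarb (-0.86 ± 0.30) and the retinal reductase Dhrs3 (-0.42 ± 0.13) being the other two, each lost without replicate 2 or 3 (adjusted p up to 0.234). Sema3e, a secreted semaphorin that repels vessels and axons, read 9.48, 9.42 and 9.65 distally, against 8.25, 7.64 and 8.46 proximally (1.40 ± 0.16, 2.63-fold, adjusted p = 0.000352). Of 22 axon guidance genes 2 were higher and 0 lower without pairing, the other being the netrin receptor Unc5c (0.80 ± 0.18, adjusted p = 0.0268), whose call ended without distal arrays 1 or 2 or proximal arrays 2 or 3 (up to 0.134).

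Genes of the IGF axis and imprinted genes, which act on embryonic growth, were lower distally where they were called. Of 17 tested, 2 were lower without pairing and 8 with pairing, and 0 were higher in either fit (2 and 3 without replicate 3). Mest, an imprinted mesodermal gene, read 13.30, 13.26 and 13.46 distally, against 13.51, 13.61 and 13.79 proximally, a small difference of -0.30 ± 0.06 (1.23-fold lower, adjusted p = 0.0102, and 0.0726 without distal array 2). Nnat, neuronatin, had -1.0 ± 0.24 (adjusted p = 0.0447, up to 0.140 without any array but distal array 2). Dlk1, a Notch-type ligand of muscle and cartilage precursors, read 11.10, 10.51 and 12.54 distally, against 12.12, 12.35 and 13.44 proximally (-1.25 ± 0.36, adjusted p = 0.108 without and 0.00101 with pairing), and the imprinted noncoding RNA Meg3 had -0.68 ± 0.19 (0.0866 and 0.000860). Dlk1 and Meg3 kept the paired call without any 1 pair.

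Genes of other cell types were called as well, those of macrophages with pairing only. Of 20 macrophage and leukocyte genes 0 were called without pairing, and 12 were lower and 0 higher distally with pairing, 5 of them without replicate 3. C1qb, a complement subunit of tissue macrophages, read 9.36, 9.30 and 9.46 distally, against 9.84, 9.91 and 10.43 proximally (-0.69 ± 0.21, adjusted p = 0.143 without and 0.00194 with pairing). C1qa (-0.67 ± 0.23) and C1qc (-0.66 ± 0.24) had similar values, and all 3 kept the paired call without any 1 pair. The summed macrophage signal was 7143 to 10701 in distal arrays and 10692 to 15405 in proximal arrays, and the ranges touched. Mpeg1, a pore protein of macrophages (-0.61 ± 0.20, adjusted p = 0.0153 with pairing), did not pass without replicate 3 (0.169).

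Of 18 endothelial genes 2 were lower and 0 higher without pairing and 6 lower and 0 higher with pairing. Cldn5, a tight junction claudin of vessels, had -0.60 ± 0.13 (adjusted p = 0.0268) and Egfl7 -0.31 ± 0.07 (0.0403). Cldn5 lost the call without arrays 1 or 2 of either end (up to 0.114) and Egfl7 without any 1 array (up to 0.161). Tek, the angiopoietin receptor (-0.64 ± 0.16, adjusted p = 0.0546 without and 0.00546 with pairing), and Emcn, endomucin (-0.51 ± 0.14, 0.0737 and 0.0114), passed with pairing only, and lost that call without replicate 2, or without replicate 2 or 3 for Emcn (0.0521 and up to 0.0852). Of 11 pericyte and smooth muscle genes Acta2, smooth muscle actin, was the only one called without pairing (9.63, 9.11 and 11.53 distally, against 11.61, 11.53 and 12.77 proximally, -1.88 ± 0.46, adjusted p = 0.0471). The ends overlapped by less than the second decimal, 2 of its 3 probe sets had that sign, and the call ended without any array except distal array 3 (up to 0.253), whereas the paired call held without any 1 pair. Developing skeletal muscle also makes Acta2, which moved here beside the sarcomere list, and the part of muscle in its difference was not tested.

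Among 20 neuronal genes 0 were called without pairing and 2 were lower with pairing, the neurofilament genes Nefl (9.46, 9.51 and 8.55 distally, against 12.08, 10.54 and 11.41 proximally, -2.17 ± 0.61, adjusted p = 0.0963 and 0.0268) and Nefm (-2.36 ± 0.75, 0.148 and 0.0444). Neither held without replicate 3 (0.215 and 0.298) or without replicate 1, and Nefm did not hold without replicate 2 either. The Schwann cell cadherin Cdh19 was lower without pairing (-0.84 ± 0.19, adjusted p = 0.0339, up to 0.133 without distal arrays 2 or 3 or proximal arrays 1 or 3). Summed neuronal signal ran from 8955 to 26948 distally and from 16796 to 36142 proximally. No gene of the lists of proliferation (17 tested), motile cilia (18), hedgehog response (11), pigment cells (8) or red blood cells (7) was called in either fit, with medians of 0.03, 0.11, -0.02, -0.22 and -0.10. Of all genes 1.24% were called without and 6.20% with pairing, so 0 calls in lists this short are near the share of all genes.

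Among TGF-beta ligands, receptors and SMADs, calls were near the share of all genes. Of 16 such genes, 0 were called without pairing (1.24% of all genes), and 1 was lower with pairing (6.20% of all genes in either direction), the co-receptor Tgfbr3 (11.05, 10.55 and 11.43 distally, against 11.32, 11.32 and 11.81 proximally, -0.48 ± 0.20, adjusted p = 0.321 without and 0.00642 with pairing). Its paired call ended without replicate 2 (0.0521). Tgfbr2 (-0.15 ± 0.10), Tgfb1 (0.37 ± 0.29), Tgfb2 (0.06 ± 0.11) and Tgfb3 (-0.20 ± 0.15) did not pass in either fit (adjusted p from 0.196 to 0.954). Of 20 TGF-beta induced genes, 1 was lower without pairing and 4 were lower and 1 higher with pairing, Acta2 and Tagln (-0.59 ± 0.16) among the lower ones, both also smooth muscle genes.

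The question whether these end differences were those of the normal maxilla was asked with the control littermates, whose arrays are separate. In the control maxilla 1518 genes (10.9%) differed between the ends. Of the 173 genes of the mutant maxilla, 120 were called in the same direction in controls, which is 69.4% of the 173 and 7.91% of the 1518, and 1 was called in the opposite direction. All 12 genes named as lower and 9 of the 12 named as higher in the distal end were called the same way in controls. The 9 include Hrnr, Crct1, Sprr1b, Serpinb2 and Aox4, which entered the test through distal maxilla arrays, of mutants and controls. Their control calls, also counted in the 120, are therefore no independent support.

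For some epithelial genes the end difference was smaller in the mutant maxilla than in the control maxilla. For cornified epithelium the median difference was 0.89 in mutants and 3.01 in controls, where 21 of 24 genes were higher distally (4.90% of all genes). Here too some members, such as Sprr1b, entered the test only through distal maxilla. The difference between the 2 end differences was called for 28 genes (0.201%), 4 higher (0.0287%) and 24 lower (0.172%) in the mutant, and with pairing for 551 (3.95%), 291 higher (2.09%) and 260 lower (1.86%). In the control maxilla 1 same-number correlation was only 0.03, so the numbers are pairs there by label alone. Of the cornified genes 0 were higher and 4 lower without pairing, and 13 were lower with pairing.

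For Krt1 the genotypes overlapped distally and did not overlap proximally. Its distal signals were 11.26, 11.04 and 12.63 in mutants, against 12.76, 11.94 and 13.32 in controls, whereas its proximal signals were 10.59, 9.95 and 11.68 in mutants, against 7.86, 7.84 and 8.42 in controls. The proximal mutant arrays thus lay well above all proximal controls. The end difference was 0.90 ± 0.41 in mutants and 4.63 ± 0.41 in controls, and their difference was -3.73 ± 0.58 (adjusted p = 0.00775). The desmosomal cadherin Dsg1a (-3.52 ± 0.66, adjusted p = 0.0267), the basal keratin Krt15 (-2.94 ± 0.54, 0.0267) and the chemokine Cxcl14 (-3.53 ± 0.59, 0.0111) were also called with a smaller end difference in mutants.

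Mesenchymal and Wnt pathway genes were among the 24 too. Twist2, a bHLH factor of dermal mesenchyme and skull osteoprogenitors, read 10.92, 10.11 and 11.66 in distal mutant maxilla and 11.07, 10.74 and 11.66 in proximal mutant maxilla, against 11.38, 11.47 and 11.55 in distal and 8.67, 8.99 and 9.04 in proximal control maxilla. The end difference of 2.57 ± 0.29 in controls was -0.27 ± 0.29 in mutants, a change of -2.83 ± 0.41 (adjusted p = 0.00307). Lef1, the nuclear partner of beta-catenin (-1.17 ± 0.16, adjusted p = 0.00307), the Wnt-induced inhibitor Apcdd1 (-1.79 ± 0.25, 0.00307), the receptor Fzd10 (-0.98, 0.0267) and the ligand Wnt5a (-1.42, 0.0499) were called in the same direction. Lef1, Apcdd1, Fzd10 and Wnt5a were singled out after their values were seen. Krt1, Twist2, Lef1 and Apcdd1 kept their call whichever of the 12 maxilla arrays was left out, and Cxcl14 missed it only without control distal array 3 (0.0520).

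The mutant minus control difference was positive for 4 called genes and negative for 24 without pairing. With pairing positive values were as frequent, for 291 genes against 260, and so they were without mutant distal array 3, for 200 against 182. A positive value can be a larger distal excess in mutants or a smaller distal deficit. Paqr9, 1 of the 4, had 0.17 in mutants and -0.79 in controls. Fezf2, a zinc finger factor of the forebrain, read 6.64, 7.83 and 7.05 in distal and 5.25, 4.94 and 4.99 in proximal mutant maxilla, against 5.01, 5.48 and 4.97 in distal and 6.01, 5.34 and 4.54 in proximal control maxilla. Only distal mutant arrays lay above the filter level, and Fezf2 entered the test through them, so its values are a description and no test is given. The calls of Dsg1a, Krt15, Fzd10 and Wnt5a against the control maxilla ended without several single arrays (adjusted p up to 0.131). Markers of forebrain and pituitary on these arrays are given with the closing observations, and their part in the Fezf2 signal was not tested. The count of 28 moved by over 1.5 times when single arrays were left out. It was 382 without mutant distal array 3, 133 without control distal array 2 and 53 without mutant proximal array 2. It was 11 to 17 without mutant distal arrays 1 or 2, mutant proximal array 3, control distal arrays 1 or 3 or control proximal arrays 1 or 2. Without replicate 1 it was 8 and without replicate 3 it was 213 (1.53%), and with only the 12 maxilla arrays in the fit it was 3.

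**Figure D4:**
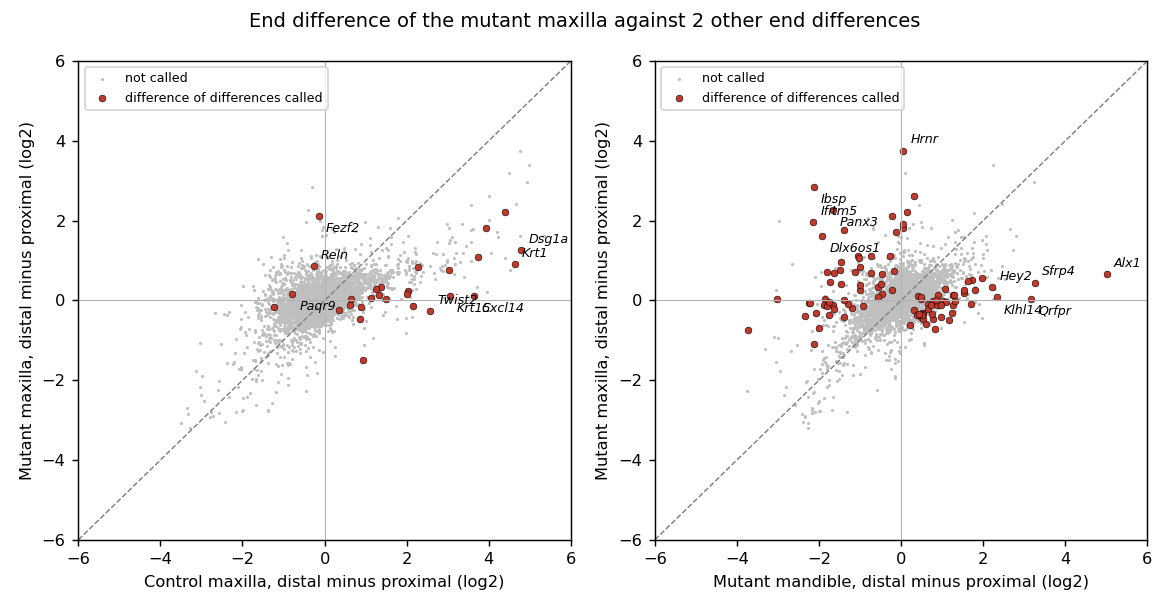
End difference (distal minus proximal, log2) of each tested gene in the mutant maxilla on the vertical axis, against its end difference in the control maxilla (left) or the mutant mandible (right); red points are genes whose 2 end differences differ at an adjusted p under 0.05, labelled genes are those named by rule, and the dashed line marks equal differences. On the left Krt1 lies well below the dashed line (0.90 in mutants, 4.63 in controls), and on the right bone genes such as Ibsp (2.85 in maxilla, -2.13 in mandible) lie at the upper left.

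The mutant mandible, cut in the same way, allowed the jaws to be set side by side. In it 1258 genes (9.02%) differed between the ends, and 94 of the 173 maxilla genes were called in the same direction, which is 54.3% of the 173 and 7.47% of the 1258, with 4 in the opposite direction. The 2 end differences differed for 100 genes (0.717%), 54 higher (0.387%) and 46 lower (0.330%) in the maxilla, and with pairing for 280 (2.01%), 144 higher (1.03%) and 136 lower (0.975%). The count of 100 was 45 to 66 without mutant distal maxilla array 1, mutant proximal maxilla arrays 1 or 2, mutant distal mandible arrays 2 or 3 or mutant proximal mandible array 3. It was 32 without replicate 1, 47 without replicate 2, 129 without replicate 3, and 33 with only the 12 mutant arrays in the fit.

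Some bone genes ran in opposite directions in the 2 jaws. Ibsp read 11.64, 11.20 and 12.98 in distal and 9.90, 7.59 and 9.80 in proximal mutant maxilla, against 11.28, 8.87 and 10.87 in distal and 12.18, 11.95 and 13.28 in proximal mutant mandible. The end differences were 2.85 ± 0.65 and -2.13 ± 0.65, and they differed by 4.98 ± 0.93 (adjusted p = 0.0134). Panx3 (3.92 ± 0.60, adjusted p = 0.00277) and Ifitm5 (4.10 ± 0.77, 0.0135) followed, as 4 of 14 bone matrix genes did without and 7 with pairing, none in the other direction. In the control maxilla Ibsp read 12.59, 11.15 and 13.09 distally, against 12.79, 11.87 and 13.13 proximally, with no call for an end difference (adjusted p = 0.827), and the mutant and control end differences of Ibsp did not differ without pairing (3.16, adjusted p = 0.203) but did with pairing (0.00598).

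Dlx6os1, a noncoding RNA of the Dlx5 and Dlx6 locus, was higher distally in the mutant maxilla (1.61 ± 0.25) and lower distally in the mutant mandible (-1.92 ± 0.25), differing by 3.53 ± 0.36 (adjusted p = 4.32e-05). Alx1, a homeobox gene of frontonasal crest, read 12.82, 12.85 and 12.48 in distal and 12.45, 12.61 and 11.14 in proximal mutant maxilla, against 11.85, 12.32 and 11.66 in distal and 6.05, 7.85 and 6.92 in proximal mutant mandible. The maxilla held high levels at both ends, and the difference of end differences was -4.36 ± 0.50 (adjusted p = 0.000136). Qrfpr, a neuropeptide receptor, stayed at 3.96 to 4.19 in the mutant maxilla, below the filter level, and lay above it only in distal mandible (7.29, 7.38 and 7.56), through which it entered the test, so no difference is read from it for the maxilla. Ibsp, Panx3, Ifitm5, Dlx6os1 and Alx1 kept their call whichever of the 12 mutant arrays was left out. Klhl14 (-2.25 ± 0.33) was at 5.50 to 6.42 in the mutant maxilla, near or below the filter level. It lay clearly above that level only in distal mutant mandible (7.61, 7.81 and 7.21). Its difference is therefore a description, and no test is given. Hrnr was called for the jaws' difference as well (3.70 ± 0.78, adjusted p = 0.0301), with mandible signals of 3.77 to 4.06, below the filter level at both ends. It entered the test through distal maxilla arrays, so this difference is a description.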

How the data were processed

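Total RNA of 24 samples was labelled as biotinylated cRNA and hybridised to single-colour arrays, per the labels' protocols. The deposited signals are log2 values that the authors made with RMA, per the submitters' processing notes. The log base was read from the range of values. Depth has no count here, and the number of arrays limits the precision.

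Of 45101 probe sets, 34945 had 1 gene symbol, 932 several, 9160 none and 64 were controls. A gene was represented by its brightest probe set on average, and 9010 of 18193 genes had several, whose signs are given where they disagree. Genes above the 40th percentile in at least 3 arrays were tested (13942) with limma 3.58.1 in R 4.3.3 over all 24 arrays and 8 groups, allowing the variance to follow the mean signal, and p-values were adjusted by Benjamini-Hochberg over the tested genes (threshold 0.05). The paired fit added the replicate number as a block within each jaw and genotype. Same-number arrays correlated at 0.60, 0.69 and 0.74 in the mutant maxilla (over 0.1 in every pair), at 0.37, 0.14 and 0.03 in the control maxilla and at 0.34, 0.55 and 0.27 in the mutant mandible. The procedure was tested on simulated data.

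The genes named were the 12 called genes with the largest difference each way that had non-overlapping arrays and 1 sign in all 3 pairs, up to 4 members of each of 44 lists by test statistic, Them5, Krt1, Shisa3 and the TGF-beta genes, and the 5 largest differences each way against control maxilla and mutant mandible. Lists, genes and comparisons were chosen with earlier results of these data known. Alternatives were the pairing, only the arrays compared, array weights, normalization, filters, probe set averages, no trend and leaving out arrays. Promoters are from RefSeq (GRCm38.p6).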

Additional observations from a re-analysis of the deposited data

Results flagged for a closer look

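These genes had an end difference in the mutant maxilla that differed from that of another tissue by a test of the difference itself, and they are given as values. Against the control maxilla, the mutant minus control difference was 2.26 for Fezf2, 1.13 for Reln and 0.95 for Paqr9. It was -3.73 for Krt1, -3.53 for Cxcl14, -3.52 for Dsg1a, -2.94 for Krt15 and -2.83 for Twist2. The calls of Reln (adjusted p = 0.0499) and Paqr9 (0.0494) ended when any of 9 or 8 of the 12 single arrays were left out (adjusted p up to 0.149 and 0.140).

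In mutants, the maxilla minus mandible difference was 4.98 for Ibsp, 4.10 for Ifitm5, 3.92 for Panx3, 3.70 for Hrnr and 3.53 for Dlx6os1. It was -4.36 for Alx1, -3.14 for Qrfpr, -2.80 for Sfrp4, -2.25 for Klhl14 and -1.89 for Hey2. Sfrp4 (adjusted p = 0.0485), Hey2 (0.0351) and Hrnr (0.0301) lost the call without 10, 9 and 8 of the 12 single arrays (adjusted p up to 0.147, 0.117 and 0.0773). Fezf2 entered the test through distal mutant maxilla alone. Qrfpr entered it through distal mandible and Hrnr through distal maxilla, each of mutants and controls. Elsewhere the group means of Fezf2, Qrfpr and Hrnr lay below the filter level, so their values describe those arrays and support nothing further. The same holds for Klhl14, whose group mean was clearly above the filter level only in distal mutant mandible.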

How the results depend on the processing

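The 173 genes differing between the mutant ends became 1 when only these 6 arrays entered the fit, 865 with the replicate block, 570 with both, 371 with array weights and 65 at a log2 difference of at least 1. With the block and without replicate 1, 2 or 3 they were 551, 350 and 286. Leaving out arrays or pairs without the block gave 5 to 176. The 28 genes differing from the control maxilla became 3, 551, 123 and 94 under the first 4 of these settings, 265, 253 and 365 with the block and without replicate 1, 2 or 3, and 8 to 382 with arrays left out. The 100 genes differing from the mutant mandible became 33 with only the arrays compared, 280 with the block, 244 with both, 164 and 271 with the block and without replicate 2 or 3, and 32 to 137 with arrays left out. Fitting only the arrays compared leaves fewer arrays to estimate the spread; the cause of the other shifts was not tested.

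Of 49 genes called without pairing and followed individually, 14 kept the call with any single array left out, and of 91 called with pairing 47 kept it with any pair left out. Signs turned only for genes that were not called. Tgfbr1 became 0.018 with array weights, 0.087 with the mean of probe sets and -0.106 to 0.0753 with arrays left out. Tgfb2 became -0.0635 to 0.187 with arrays left out and -0.0248 with the block and without replicate 3. Leaving out control or mandible arrays, and the fits leaving out a pair with the block, were chosen after seeing the data.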

Other observations

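Cga and Tshb, genes of the anterior pituitary, were high on proximal mutant maxilla arrays 1 and 2 and low on array 3. Proximal control maxilla array 1 was high too. Of 10 tested forebrain and pituitary genes, 4 had positive and 6 negative differences, with a median of -0.06. With all 3 replicates, 1 was called higher and 0 lower without pairing, and 2 higher and 0 lower with pairing. Those 2 were Fezf2, given above as a description, and Otx1 (0.78 ± 0.21). Cga, the shared subunit of glycoprotein hormones, read 6.48, 6.28 and 6.23 distally, against 8.95, 9.56 and 6.30 proximally (-1.94 ± 0.60, and -2.87 without replicate 3), and 8.89, 6.67 and 6.27 in proximal control maxilla. Tshb, the thyrotropin subunit, read 5.57, 5.72 and 5.50 distally, against 7.46, 7.58 and 5.55 proximally (-1.27 ± 0.39, and -1.87 without replicate 3), and 7.25, 5.90 and 5.69 in proximal control maxilla. Only proximal mutant arrays 1 and 2 and proximal control array 1 lay above the filter level, and Tshb entered the test through them. Its values are therefore a description and no test is given. Its distal signals lay below the filter level of 6.33 to 6.37, so the log2 sizes are lower limits. The pituitary and eye factor Six6 read 4.60, 5.42 and 4.25 distally, against 7.86, 6.58 and 4.36 proximally, and did not pass (adjusted p = 0.455), with 7.46, 7.28 and 3.82 in proximal control maxilla. Cga had group means clearly above the filter level only in proximal maxilla, of mutants and controls. Its values are therefore a description too, and no test is given for it.

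Of 18 tendon genes 0 were called without pairing and 3 were lower distally with pairing. Thbs4, a matrix protein of tendon and muscle attachment, read 5.84, 6.32 and 6.65 distally, against 7.03, 7.18 and 8.95 proximally (-1.45 ± 0.37, adjusted p = 0.0634 without and 0.00649 with pairing, and 0.0590 with pairing without replicate 3). Its distal mean lay below the filter level, so the log2 size is a lower limit.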
